A study of Mus musculus with 22 samples.

Results

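The interferon response and antigen presentation genes described here are 47 gene symbols, looked up by exact name among the 11355 genes listed in 2 RNA-seq libraries of 3T3-L1 cells, and 44 of the 47 were listed in both. 3T3-L1 is a mouse preadipocyte line, a fibroblast-like cell that can be turned into adipocytes in culture. One library is labelled siPcf11, for a small interfering RNA against Pcf11, a cleavage and polyadenylation factor that also acts in transcription termination, and the other is a control labelled untreated. No control siRNA is named, so transfection as such and the siRNA's target cannot be told apart. The labels give the strain as C57BL/6 for both libraries, and whether the line is of that strain was not checked. The series holds 22 libraries in all, and the 20 others are 3′READS libraries of C2C12, NIH3T3 and 4T1 cells whose poly(A) sites carry no gene name, so they were not used here.

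Type I interferons bind a receptor of the subunits IFNAR1 and IFNAR2, whose kinases JAK1 and TYK2 phosphorylate transcription factors such as STAT2. STAT2 acts with IRF9 in the complex ISGF3, which binds interferon-stimulated response elements, and the genes it induces code for proteins that block viruses or cut and display viral peptides. Cytosolic sensors of double-stranded RNA, such as RIG-I (gene Ddx58) and MDA5 (gene Ifih1), start interferon production by way of the factors IRF3 and IRF7. Fibroblasts and preadipocytes have this pathway, and many of its genes keep a low basal level without added interferon.

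With 1 library per group there was no replicate check and no test. Each value below compares 2 libraries, not conditions. Ratios are those of counts scaled by TMM (trimmed mean of M values, which sets the libraries to one scale from the bulk of their genes), given as the library labelled siPcf11 over the control, with a 95% interval that covers counting error only. Over all genes with a summed count of at least 20, 17.9% of these intervals lay above 1 and 18.2% below. Where the intervals of 2 genes do not overlap, their ratios differ beyond counting error, between these libraries only. How often this happens among all pairs of genes was not counted. The control held 8573956 reads and the library labelled siPcf11 6992460. No gene under 5 reads is listed, so an unlisted gene can have had up to 4 reads. The target gene went against the label, with Pcf11 at 939 counts for the control and 840 for the library labelled siPcf11, a ratio of 1.12 (interval 1.02 to 1.23). Whether the labels are exchanged or the siRNA left no lower Pcf11 RNA cannot be told apart here, so every direction below is only that of the library labelled siPcf11. If the labels were exchanged, each ratio would turn over: Xaf1 would be at 0.217, Ifih1 at 0.309, Usp18 at 0.456 and Irf3 at 1.52. The 12 members called higher would then be lower and the 1 called lower would be higher. Pcf11 itself would be at 0.891 (interval 0.811 to 0.980), so its RNA differed little under either reading of the labels. As background for cell identity, 11 of 12 preadipocyte and fibroblast markers were listed, at a summed level of 36280 CPM (counts per 1000000 reads after TMM) for the control and 39521 for the library labelled siPcf11. Of 9 mature adipocyte markers 2 were listed, with summed levels of 110 and 86.1 CPM, and both were lower. Fabp4 had 845 and 552 counts, a ratio of 0.819 (interval 0.735 to 0.913), and Lipe 109 and 43, a ratio of 0.495 (0.339 to 0.710). The defining Adipoq and Plin1 were unlisted in both. Of 12 macrophage and leukocyte markers 4 were listed, with summed levels of 16.7 and 22.1 CPM (Cd14 with 57 and 71 counts, a ratio of 1.56 and an interval of 1.09 to 2.25, Csf1r with 28 and 35, Lyz2 with 5 and 7, and Cd68 with 55 and 40), while Ptprc, Adgre1 and Itgam were unlisted. Of 10 endothelial markers 3 were listed, with summed levels of 12.9 and 27.3 CPM. Vwf, with 52 and 100 counts (2.41, 1.71 to 3.44), and Selp, with 34 and 72 (2.66, 1.74 to 4.12), were higher, Egfl7 had 26 and 17 (0.820, 0.417 to 1.57), and Pecam1 and Cdh5 were unlisted. The part of these markers in the results below was not tested, and in bulk RNA a change in the number of cells of a type and a change in RNA per cell cannot be told apart.

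Most members were a little higher in the library labelled siPcf11, and the largest ratios were those of Xaf1, Ifih1 and Usp18. The members were chosen with earlier results of these data known. Their counts beside the shares of all genes are thus a description and no independent evidence of a shift. All 44 listed members had a summed count of at least 20 over both libraries. Of these, 41 had a log2 ratio above 0, beside 49.8% of the 10909 genes with that summed count, and with library totals as the only scaling the number was 35, beside 45.2% of all genes. At least 1.5-fold higher were 12 members, beside 4.67% of all such genes. These were Xaf1, Ifih1, Usp18, Mx1, Irf9, Oasl2, Dtx3l, Isg15, Ifit1, Irf7, Parp14 and Ifit3. One member, Irf3, was at least 1.5-fold lower, beside 6.64% of all genes. The counting interval lay above 1 for 24 members, beside 17.9% of all genes, and below 1 for 3, beside 18.2%. The median log2 ratio was 0.26 over the members and -0.0017 over all genes. Summed over the list, the members were at 2267 CPM for the control and 2569 for the library labelled siPcf11.

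**Figure D1:**
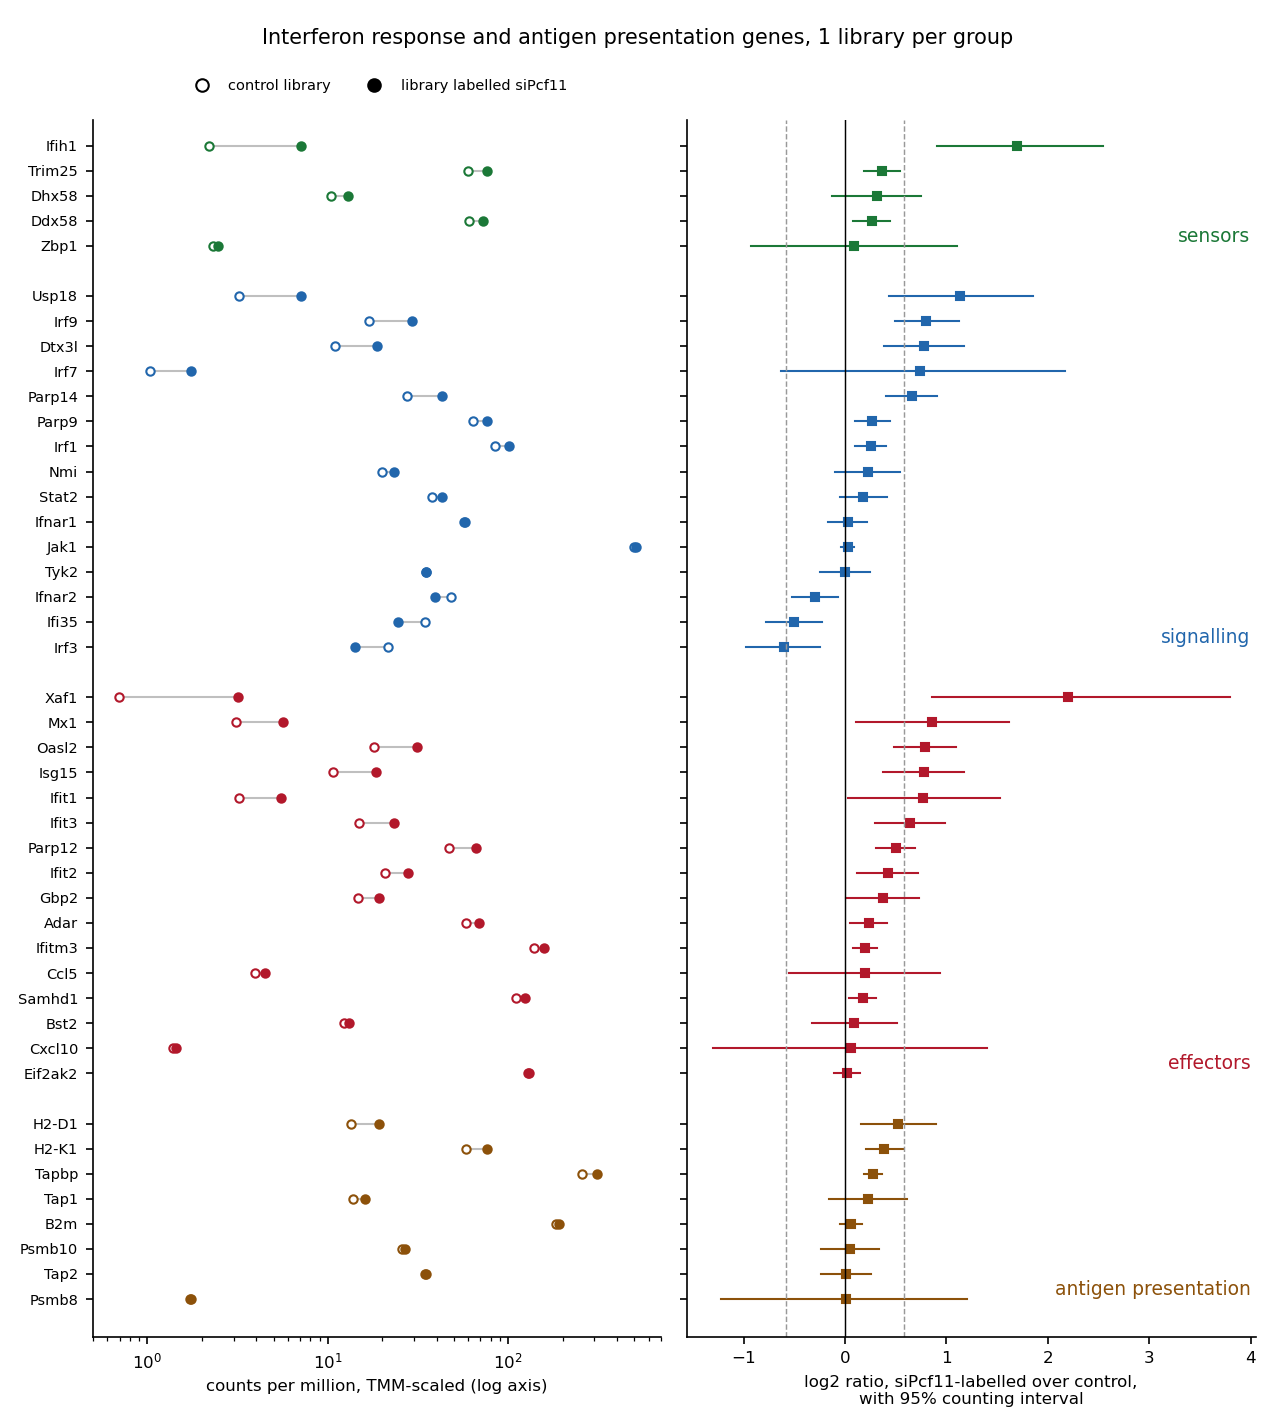
Left, CPM of each of the 44 listed members in the control (open) and in the library labelled siPcf11 (filled), on a log axis, not corrected for gene length, so rows compare libraries and not genes. Right, the log2 ratio with its 95% counting interval, with dashed lines at 1.5-fold: Xaf1, Ifih1 and Usp18 lie farthest to the right, and 3 signalling genes, Ifnar2, Ifi35 and Irf3, lie to the left of 0.

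Genes with few reads vary more, so the members were also read against genes of like depth. Among genes with a summed count from 20 to under 100, 17.7% of all genes were at least 1.5-fold higher, as were 6 of 10 members. From 100 to under 500 it was 4.76% of all genes and 5 of 15 members. From 500 to under 2000 it was 0.510% of all genes and 1 of 14 members, Parp14. None of the 5 members with 2000 or more counts passed, beside 0.116% of all genes. Of the 12 called members, 6 thus rest on under 100 reads in total, and Irf9, Oasl2, Dtx3l, Isg15, Parp14 and Ifit3 on more.

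**Figure D2:**
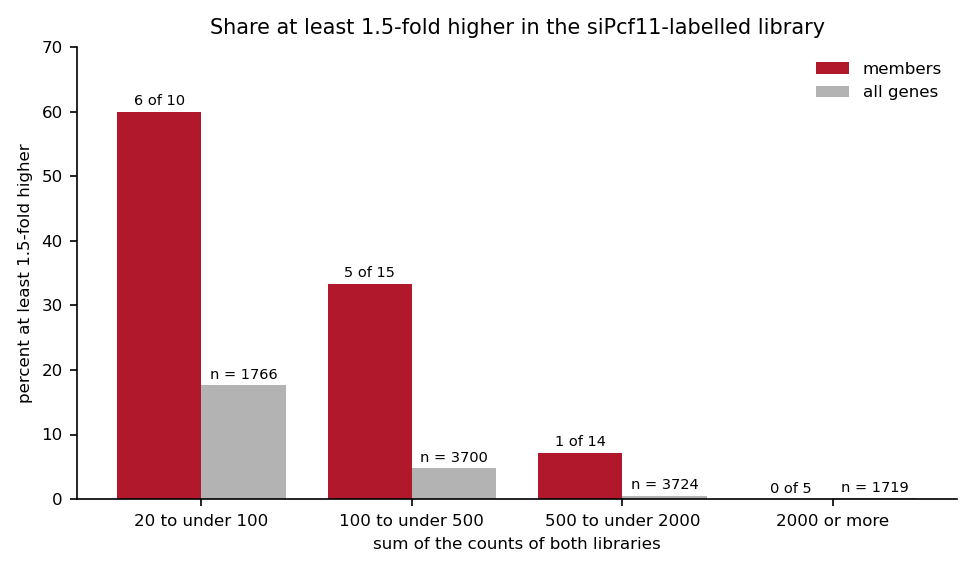
Percent of members (red) and of all genes (grey) that were at least 1.5-fold higher in the library labelled siPcf11, in 4 bands of the summed count of both libraries, with the numbers of genes above the bars. The share falls with depth in both, from 6 of 10 members and 17.7% of all genes in the lowest band to 0 of 5 members and 0.116% in the highest.

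**Figure D3:**
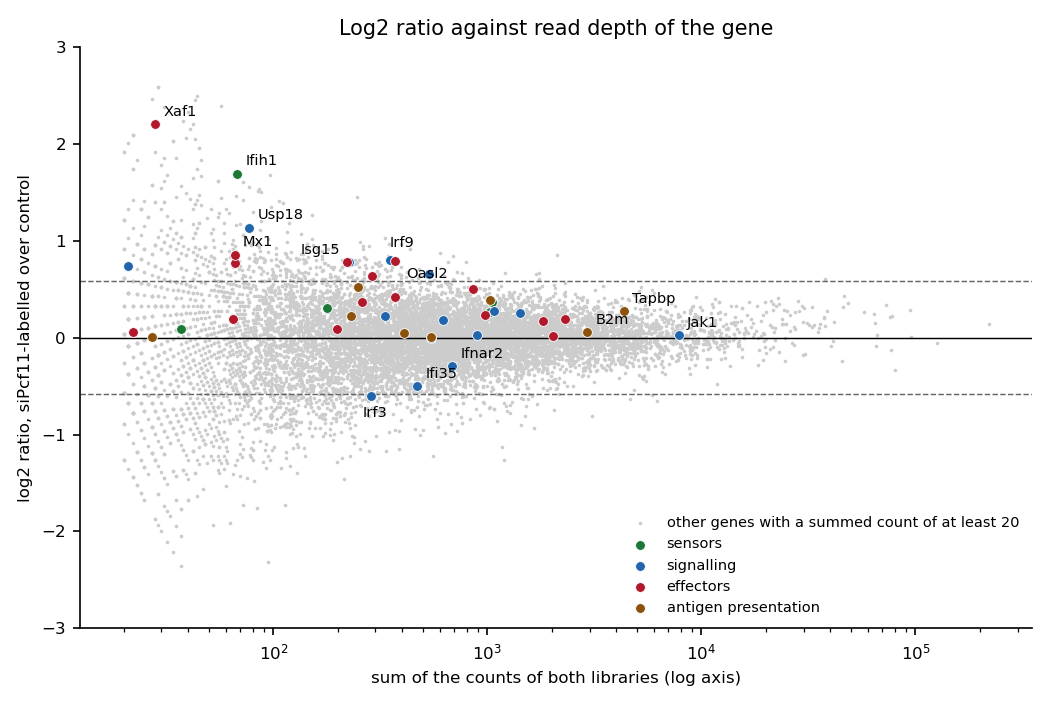
Log2 ratio of the library labelled siPcf11 over the control against the summed count of both libraries (log axis), for all genes with a summed count of at least 20 (grey) and for the members by role (colours), with dashed lines at 1.5-fold. Genes unlisted in 1 library have no finite ratio and are left out. The spread of grey points narrows with depth, and Irf9, Isg15 and Oasl2 lie near the upper edge of genes with like counts.

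Among the 5 sensors and their helpers, 1 stood out. Ifih1 codes for MDA5, which binds long double-stranded RNA, and had 19 control counts and 49 in the library labelled siPcf11. Its ratio was 3.23 (interval 1.87 to 5.82). Ddx58 codes for RIG-I, which recognises short double-stranded RNA with a 5′ triphosphate, and had 526 and 503 counts, a ratio of 1.20 (1.06 to 1.36). The 2 RNA sensors therefore differed in size of ratio, and their intervals did not overlap. Trim25, a ubiquitin ligase that activates RIG-I, had 516 and 530 counts, a ratio of 1.29 (1.14 to 1.46). Dhx58, the gene of the regulatory helicase LGP2, had 90 and 89 counts, and its interval of 0.915 to 1.68 held 1. Zbp1, a sensor of Z-form nucleic acids, had 20 and 17 counts and a ratio of 1.07 (0.524 to 2.14), which at this depth shows no direction.

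Other parts of the sensing route, from a list of 18 adaptors, kinases and sensors that are no members, mostly had ratios below 1. Of 15 with enough counts, 3 had a log2 ratio above 0, beside 49.8% of all genes, and 12 below, with a median of -0.19. The counting interval lay above 1 for 2 of the 15, beside 17.9% of all genes, and below 1 for 3, beside 18.2%. It held 1 for 10. Tlr3, the endosomal sensor of double-stranded RNA, was higher with 64 and 81 counts (ratio 1.59, 1.13 to 2.24). Mb21d1, the gene of the DNA sensor cGAS, had 93 and 104 counts (1.40, 1.05 to 1.88), and Ifi204 had 1017 and 834 (1.03, 0.937 to 1.13). The lowest ratios among genes with at least 100 counts were those of the kinase gene Ikbke, with 378 and 210 counts (0.697, 0.586 to 0.827), and of the adaptor genes Traf3, with 223 and 134 (0.754, 0.604 to 0.938), and Ticam1, with 265 and 185 (0.875, 0.722 to 1.06). Mavs, the adaptor of RIG-I and MDA5, had 283 and 211 counts and Tbk1, the kinase of IRF3, 630 and 475, and both intervals held 1. Aim2, a DNA sensor, was lower on few reads, with 42 and 14 counts (0.418, 0.211 to 0.781). Oas1g, of a family that senses double-stranded RNA, had 23 and 8 counts (0.436, 0.169 to 1.01). Sensors of double-stranded RNA thus lay on both sides of 1, Ifih1 and Tlr3 above it and Oas1g below with an interval that held it.

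No interferon gene was seen. All 8 ligand genes of the list were unlisted in both libraries, among them Ifnb1, Ifna4 and Ifng, so each had at most 4 reads per library.

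The 15 signalling members are given here by role. No receptor or kinase gene had an interval above 1. Ifnar1 had 492 and 400 counts, a ratio of 1.02 (0.891 to 1.17). Ifnar2 was lower, with 416 and 270 counts (0.814, 0.696 to 0.951), and the intervals of these 2 subunits of one receptor overlapped. Jak1, with 4329 and 3512 counts, had a ratio of 1.02 (0.973 to 1.06), the narrowest interval of the list, and Tyk2, with 302 and 241, one of 1.00 (0.841 to 1.19). Ifnar1, Jak1 and Tyk2 are close enough to 1 that their side of it changes with the scaling.

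Irf9 and Stat2, whose proteins act together in ISGF3, differed in size of ratio. Irf9, the DNA-binding subunit, was higher, with 146 control counts and 203 in the library labelled siPcf11, a ratio of 1.74 (1.40 to 2.17). Stat2 had 327 and 295 counts and an interval that held 1 (ratio 1.13, 0.963 to 1.33). The lower bound of Irf9 lay above the upper bound of Stat2.

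The other interferon regulatory factors had no common direction. Irf3, the factor that RNA and DNA sensors activate first, had 187 and 98 counts, the lowest ratio of all members at 0.657 (0.509 to 0.844). Irf1, a factor induced by interferon gamma, had 730 and 694 counts (1.19, 1.07 to 1.32). Irf7, which amplifies interferon production, was barely detected, with 9 and 12 counts, and its ratio of 1.67 had an interval of 0.647 to 4.49. Irf3 was the only member factor with an interval below 1, and the levels of Irf7 are too low to give a direction.

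Feedback and cofactor genes held most of the higher signalling members. Usp18 codes for the protease that removes ISG15 from proteins and that also blocks the interferon receptor, and had 28 and 49 counts (2.19, 1.35 to 3.63). Dtx3l, a ubiquitin ligase that works with PARP9, had 95 and 130 counts (1.72, 1.31 to 2.26), and Parp14, a mono-ADP-ribosyltransferase, 237 and 298 (1.58, 1.33 to 1.88). Parp9 itself had 550 and 529 counts, a smaller ratio of 1.21 (1.07 to 1.36). Dtx3l and Parp9 are next to each other in the gene table, and their intervals overlapped only narrowly. Ifi35 and Nmi, whose proteins bind each other, did not move alike. Ifi35 was lower, with 300 and 169 counts (0.706, 0.582 to 0.856), whereas Nmi had 173 and 161 (1.17, 0.936 to 1.45), and these intervals did not overlap.

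A list of 15 further receptor genes and negative regulators had a median log2 ratio of -0.04. Above 0 were 7, beside 49.8% of all genes, and below it 8. The highest with at least 100 counts were Stat3, with 973 and 1043 counts (1.34, 1.23 to 1.47), Ifngr2, a subunit of the interferon gamma receptor, with 196 and 202 (1.29, 1.06 to 1.58), and the phosphatase gene Ptpn2, with 890 and 839 (1.18, 1.07 to 1.30). Among the lowest were Irf2bp1, with 211 and 139 counts (0.826, 0.662 to 1.03), and Jak2, with 834 and 579 (0.871, 0.782 to 0.969). Socs1, an inhibitor that interferon induces, had 31 and 16 counts (0.647, 0.331 to 1.22), and its interval held 1, unlike that of the feedback gene Usp18.

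The 18 effector members code for antiviral proteins and chemokines that interferon induces. The 16 that were listed all had a log2 ratio above 0 with TMM scaling (Eif2ak2 lies below 0 with library totals), beside 49.8% of all genes. Their median was 0.40. At least 1.5-fold higher were 6, beside 4.67% of all genes. Xaf1, a gene linked to cell death that interferon induces, had the largest ratio of all members on few reads, 6 and 22 counts (4.60, 1.81 to 13.9). Mx1, an antiviral GTPase, had 27 and 39 counts (1.81, 1.08 to 3.08). Oasl2, a 2′-5′-oligoadenylate synthetase-like protein, had 156 and 215 (1.73, 1.40 to 2.14). Isg15, a ubiquitin-like protein that is joined to other proteins in the interferon response, had 93 and 127 (1.71, 1.30 to 2.26). The intervals of all 4 genes lay above 1, that of Xaf1 being by far the widest.

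The Ifit genes code for proteins that bind viral RNA and lie near each other on chromosome 19. Ifit1 had 28 and 38 counts (1.70, 1.02 to 2.88), Ifit2 179 and 191 (1.34, 1.09 to 1.65) and Ifit3 129 and 160 (1.56, 1.23 to 1.98). All 3 were higher, with intervals that overlapped. Ifit3b, a close copy of Ifit3 that the member list does not hold and that was picked after its values were seen, had 31 and 49 counts. How reads shared by such copies were counted is not given in the sources used here, so the counts of Ifit3, and those of the Oas, Gbp, Mx, Ifitm and H2 families, are uncertain.

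Of the other effectors, Parp12 (405 and 456 counts), Gbp2 (128 and 132), Adar (505 and 473), Ifitm3 (1200 and 1097) and Samhd1 (953 and 858) had intervals above 1 and ratios between 1.13 and 1.41. Eif2ak2, the gene of the kinase PKR, which stops translation when it binds double-stranded RNA, had 1121 and 906 counts and a ratio of 1.01 (0.928 to 1.11). Bst2, a membrane protein that tethers virus particles, had 107 and 91 (1.07, 0.797 to 1.42). The chemokine genes were scarce, Ccl5 with 34 and 31 counts and Cxcl10 with 12 and 10, and both intervals held 1. Rsad2 and Oas1a were unlisted in both libraries. The upper bound of Eif2ak2 lay below the lower bounds of Isg15 and Oasl2.

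Promoter sequence is a property that the choice of members did not use directly. RefSeq promoter windows in build GRCm38.p6, from 250 bases before to 50 after a start site, were found for 39 members. The motif searched was the core of the interferon-stimulated response element, GAAANNGAAA on either strand, whose matches can overlap each other. It occurred in 14 of 45 member windows (31.1%) and in 3.44% of all 32851 windows. The gamma-activated site TTCNNNGAA, which reads the same on both strands, occurred in 12 member windows (26.7%) and in 8.30% of all. Stretches of 30 bases are shown for 6 members, to set genes called higher (Isg15, Ifit1 and Ifit3) beside genes with a like match that were not (Gbp2, Stat2 and B2m). Capitals mark the matches.
Isg15: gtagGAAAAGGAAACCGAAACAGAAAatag
Ifit1: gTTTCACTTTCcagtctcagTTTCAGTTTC
Ifit3, upstream match: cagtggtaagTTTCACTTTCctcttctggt
Ifit3, downstream match: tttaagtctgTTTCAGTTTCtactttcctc
Gbp2: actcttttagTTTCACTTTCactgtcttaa
Stat2: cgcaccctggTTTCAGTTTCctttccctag
B2m: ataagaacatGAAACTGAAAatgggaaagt

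Each is written on the strand of its gene, 5′ to 3′, and lies upstream of the start site. In GRCm38.p6, Isg15 is at chr4:156200871-156200900 on the minus strand, with 3 overlapping matches, and Ifit1 at chr19:34640784-34640813 on the plus strand, with 2. The stretches of Ifit3 are at chr19:34583363-34583392 and chr19:34583397-34583426, that of Gbp2 at chr3:142620594-142620623, that of Stat2 at chr10:128270266-128270295 and that of B2m at chr2:122147538-122147567, all on the plus strand with 1 match each. The submitters' processing notes name mm9 for their own data, so these positions belong to the sequences only.

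Of 12 counted members with a response element match, 4 were at least 1.5-fold higher, Ifih1, Isg15, Ifit1 and Ifit3, and the median log2 ratio was 0.23. Of 24 without one, 5 were at least 1.5-fold higher, among them Irf9, Oasl2 and Xaf1, and the median was 0.24. Eif2ak2, B2m, Bst2 and Cxcl10 had a match and log2 ratios between 0.02 and 0.09. Over all genes, 5.94% of 320 with a match and 4.33% of 8358 without were at least 1.5-fold higher. Among genes of the other pathway lists it was 13.6% of 22 with a match and 4.17% of 48 without, with medians of 0.09 and -0.05. Among genes in none of the lists it was 4.21% of 285 and 4.29% of 8257. With the stricter motif, the same core followed by C, the shares were further apart, 13.8% of 87 genes with a match against 4.30% of 8591 without over all genes, and 9.38% of 64 against 4.25% of 8478 among genes in none of the lists. For the members the stricter motif gave 4 called higher of 11 with a match and 5 of 25 without, with medians of 0.26 and 0.23. With a gamma-activated site match, 0 of 11 members were at least 1.5-fold higher, and without one 9 of 25. The medians of these members were 0.09 and 0.37. The 2 sets were not matched for depth, and calls are rarer among genes with more reads. With the site, Ifitm3, Eif2ak2, Samhd1 and Irf1 had summed counts of 2297, 2027, 1811 and 1424, though Bst2 had 198 and Psmb8 27. The part of depth in this split was not tested. Over all genes, 3.76% of 719 with this site and 4.45% of 7959 without were at least 1.5-fold higher. None of these differences was tested. No match says only that these letters are absent from this window.

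The genes that act with ISG15 were not higher together. Isg15 and its protease gene Usp18 were higher, while Uba7, the enzyme that activates ISG15, had 160 control counts and 67 in the library labelled siPcf11, a ratio of 0.525 (0.389 to 0.703). Ube2l6 and Herc6, which carry and attach ISG15 and which were named after their values were seen, had ratios of 1.13 (0.854 to 1.49) and 1.08 (0.883 to 1.33). Isg15 and the gene of its activating enzyme thus lay on opposite sides of 1 between these libraries, both with intervals that did not hold it.

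The wider list of 50 interferon-induced genes that are no members was less one-sided. Like the members, it was chosen with earlier results of these data known, so the contrast is a description only. Of 39 with enough counts, 24 had a log2 ratio above 0, beside 49.8% of all genes, and 15 below, and the median was 0.12. Past 1.5-fold were 4 upward and 2 downward, beside 4.67% and 6.64% of all genes. Among those with at least 100 counts, the highest were Igtp, a GTPase gene, with 71 and 76 counts (1.34, 0.958 to 1.88), Tdrd7, with 760 and 787 (1.30, 1.17 to 1.44), and Znfx1, an RNA helicase gene, with 596 and 609 (1.28, 1.14 to 1.44). The lowest were Uba7, Tor3a, with 195 and 94 counts (0.605, 0.468 to 0.777), and Ifi27, with 4027 and 2515 (0.783, 0.745 to 0.823). The 4 called higher included Mx2, with 27 and 69 counts (3.20, 2.03 to 5.20), and the guanylate-binding gene Gbp7, with 21 and 41 (2.45, 1.41 to 4.36). Both have fewer than 100 counts and were picked after their values were seen.

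Among antigen presentation members, the intervals above 1 were those of the class I heavy chains and of tapasin. Of 8 listed members, 8 had a log2 ratio above 0 with TMM scaling (Psmb8 and Tap2 lie below 0 with library totals), beside 49.8% of all genes. None was at least 1.5-fold higher, beside 4.67% of all genes, a share at which few of 8 would pass. The median was 0.14. H2-D1 and H2-K1 code for the class I heavy chains that show peptides at the cell surface. H2-D1 had 116 and 133 counts (1.44, 1.11 to 1.86) and H2-K1 505 and 527 (1.31, 1.16 to 1.48). Tapbp, the gene of tapasin, which loads peptides onto class I, had 2213 and 2134 counts (1.21, 1.14 to 1.28). B2m, the light chain of class I, had 1593 and 1322 counts and an interval that held 1 (1.04, 0.967 to 1.12). The interval of H2-K1 lay above that of B2m, so between these libraries their ratios differed by more than counting error. Reads of H2-D1 and H2-K1 can be shared with other H2 genes, and the strain of origin of a cell line can change how well they align, which was not tested.

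The genes of peptide supply had intervals that held 1. Tap1 and Tap2 code for the transporter that moves peptides into the endoplasmic reticulum and had 119 and 111 counts (1.17, 0.895 to 1.53) and 301 and 242 (1.01, 0.848 to 1.20). Psmb8 and Psmb10 code for catalytic subunits of the immunoproteasome, the form that interferon induces, and had 15 and 12 counts (1.00, 0.429 to 2.30) and 223 and 184 (1.03, 0.847 to 1.26). The third subunit gene, Psmb9, was unlisted in both. Their counterparts in the standard proteasome had intervals above 1, Psmb5 with 1324 and 1235 counts at 1.17 (1.08 to 1.27), Psmb6 with 1749 and 1511 at 1.08 (1.01 to 1.16) and Psmb7 with 2213 and 2022 at 1.15 (1.08 to 1.22). No shift from standard to interferon-induced subunits was detectable at this depth.

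Of 16 other antigen processing genes with enough counts, 6 had a log2 ratio above 0, beside 49.8% of all genes. The other 10 lay below, and the median was -0.08. The class I gene H2-Q4 had 146 and 170 counts (1.46, 1.16 to 1.83), Pdia3, a chaperone of class I assembly, 8051 and 7254 (1.13, 1.09 to 1.17), and Psme2, a proteasome activator subunit, 430 and 356 (1.04, 0.900 to 1.20). The lowest with at least 100 counts were Rfx5, a transcription factor of class I and class II genes, with 314 and 159 counts (0.635, 0.521 to 0.771), Psme1, the partner of Psme2, with 837 and 486 (0.728, 0.650 to 0.815), and H2-M3, with 179 and 106 (0.743, 0.578 to 0.950). The activator partners Psme1 and Psme2 differed, with intervals that did not overlap. Nlrc5, the class I transactivator, had 27 and 38 counts (1.76, 1.05 to 3.01), on few reads and picked after its values were seen. The class II genes H2-Aa, H2-Ab1 and H2-Eb1 and their activator Ciita were unlisted.

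**Figure D4:**
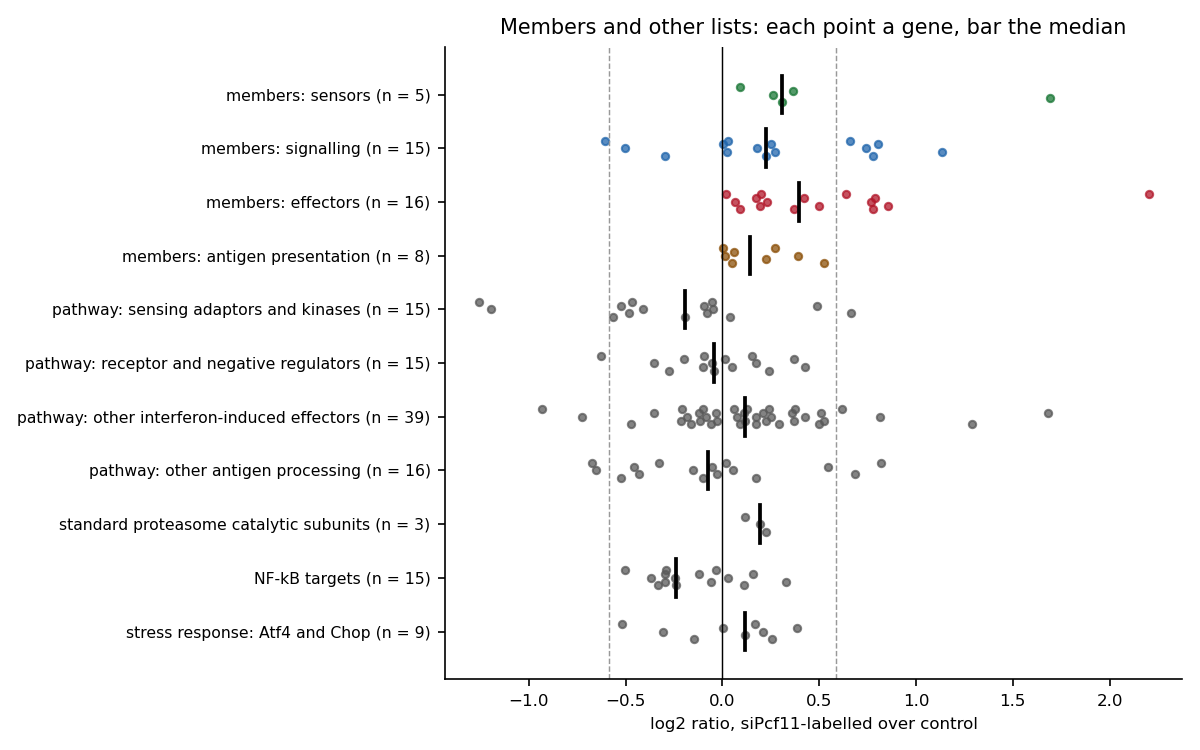
Log2 ratio of each gene with a summed count of at least 20, for the members by role (colours) and for 7 other lists (grey), with black bars at the medians and dashed lines at 1.5-fold. The members' medians lie between 0.14 and 0.40, while the lists of sensing adaptors and of NF-kB targets lie at -0.19 and -0.24. The standard proteasome subunits lie at 0.20, above the antigen presentation members. Other interferon-induced effectors and the Atf4 and Chop list both lie at 0.12. The receptor and negative regulator list lies at -0.04 and other antigen processing at -0.08.

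Targets of NF-kB, the other factor that RNA sensors activate, were set beside the members. Of 15 with enough counts, 4 had a log2 ratio above 0, beside 49.8% of all genes, and the median was -0.24. None was 1.5-fold higher or lower, beside 4.67% and 6.64% of all genes. The lowest with at least 100 counts were the chemokine gene Cxcl1, with 96 and 54 counts (0.705, 0.496 to 0.995), Relb, with 221 and 140 (0.794, 0.638 to 0.986), and Nfkb2, with 2909 and 1888 (0.814, 0.768 to 0.863). The highest with at least 100 counts were Csf1, with 2028 and 1807 counts (1.12, 1.05 to 1.19), Nfkbia, with 348 and 300 (1.08, 0.923 to 1.27), and Nfkb1, with 1380 and 1121 (1.02, 0.941 to 1.10). Of 9 genes of the Atf4 and Chop stress response, 6 had a log2 ratio above 0, beside 49.8% of all genes. None was 1.5-fold higher or lower, again beside 4.67% and 6.64%. The counting interval lay above 1 for 2, beside 17.9% of all genes, and below 1 for 3, beside 18.2%. Their highest ratios were those of Phgdh, with 506 and 528 counts (1.31, 1.16 to 1.48), Trib3, with 187 and 178 (1.19, 0.967 to 1.47), and Psat1, with 2896 and 2670 (1.16, 1.10 to 1.22). The lowest were Chac1, with 196 and 109 (0.697, 0.547 to 0.886), Ddit3, with 2730 and 1761 (0.809, 0.761 to 0.859), and Asns, with 1729 and 1245 (0.903, 0.839 to 0.972). The difference between these lists and the effector members was not tested.

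Position along the chromosome was also examined, since neighbouring genes can share reads or regulation. The nearest gene on either side of each member with enough counts and in no list gave 80 genes. Their median log2 ratio was -0.05, with 35 above 0, beside 49.8% of all genes. Past 1.5-fold were 5 upward, Ifit3b among them, and 3 downward, beside 4.67% and 6.64% of all genes. The highest was Lcat, next to Psmb10, with 16 and 39 counts and a log2 ratio of 1.61. The lowest was Pgghg, near Ifitm3, with 166 and 48 counts and a log2 ratio of -1.46. The nearest such genes around Irf9 were Rnf31, with 313 and 258 counts, and Ipo4, with 1087 and 719. Irf3 lay between Bcl2l12, with 62 and 57 counts, and Scaf1, with 3326 and 2923, neither of which had a log2 ratio below 0. The nearest such genes around Ifih1, Psmd14 and Gca, had log2 ratios of 0.18 and 0.45, against 1.69 for Ifih1. Gca had only 11 and 12 counts. Around the Ifit genes, Ifit3b aside, Lipa on one side had 336 and 462 counts and a log2 ratio of 0.79, and Pank1 on the other had 100 and 50 and a log2 ratio of -0.67. The neighbours of Irf9, Irf3 and Ifih1 thus had smaller ratios, or ratios in the other direction. Ifit3b aside, the Ifit genes had 1 neighbour in each direction.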

How the data were processed

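Read counts per gene symbol were taken from the tables of 2 mouse 3T3-L1 RNA-seq libraries, 1 labelled siPcf11 and 1 untreated. Per the file headers the deposited values are read counts, and as whole numbers with unequal totals they are not normalized by the authors. The submitters' processing notes list Cutadapt, Bowtie2 and STAR and the build mm9 and assign them no role. The annotation, use of strand and handling of shared reads: not given in the sources used here. Both tables list no gene under 5 counts, and unlisted genes were entered as 0.

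Libraries were scaled by TMM in edgeR 4.0.16 (R 4.3.3). Ratios carry exact Clopper-Pearson intervals (95%) conditional on the sum of both counts, computed with scipy 1.17.1 and tested on simulated data. They cover counting error only, as 1 library per group gives no spread between libraries. The simulated counts held counting error only. PCR copies are not independent molecules, so the intervals can be too narrow. Called means at least 1.5-fold among genes with a summed count of at least 20, as no test is possible with 1 library per group. Other settings were library totals, DESeq2 1.42.0 size factors, the upper quartile, other count minimums and folds, the unlisted counts entered as 4, and gene families left out. Members and lists were chosen with earlier results of these data known. Each member was named, with full values for those of fixed key roles and the 5 largest ratios per role. In the other lists the 3 highest and 3 lowest genes with at least 100 counts were named, except 1 gene that is not reported here. The files' symbols were matched to RefSeq (GRCm38.p6) by exact name.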

Additional observations from a re-analysis of the deposited data

How the results depend on the processing

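With 1 library per group no replicate could be left out, and no test stands behind any call. No paired analysis was possible because each group has 1 library. The numbers of members at least 1.5-fold higher (12) and lower (1) were the same with library totals, DESeq2 size factors and the upper quartile. Members above 0 numbered 41 with TMM, 35 with library totals, 40 with DESeq2 size factors and 41 with the upper quartile. Ifnar1, Jak1, Tyk2, Eif2ak2, Psmb8 and Tap2 change sign with at least 1 of these. With a summed count of at least 100, 6 of 34 members were higher, as the members with fewer reads drop out, beside 2.15% of all genes. At a 2-fold threshold 3 were higher and 0 lower (1.28% and 1.84% of all genes), and at a lower threshold (0.32 on the log2 scale) 18 were higher and 2 lower (13.8% and 16.6% of all genes). Without gene families that can share reads, 8 of 35 were higher, beside 4.67% of all genes. Depth limits Xaf1, Irf7, Cxcl10, Psmb8 and Zbp1 most, each with under 40 reads in total.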
